A study of Rattus norvegicus with 2 samples.

Results

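Surface and secreted proteins of the Wnt, Notch, TGF-beta and Hedgehog pathways were followed in RNA bound to P180, an ER membrane protein that binds ribosomes, in rat primary cortical neurons. The members were chosen by gene name, with earlier results of these data known. The names were those of Wnt, Frizzled, Ror and Sfrp genes, numbered Lrp genes, and Notch receptors with their Delta-like and Jagged ligands. BMP and TGF-beta ligands with their receptors, and Hedgehog pathway genes such as Ptch1 and Smo, were also taken. This gave 82 of the 25628 genes in the count table, made up of 35 ligands, 42 receptors and 5 secreted modulators. The names also take in 9 LDL receptor relatives, most of which are known chiefly as endocytic receptors, and Bmp1, a protease rather than a BMP ligand. RNA was sequenced after a streptavidin pull-down of P180-GFPbio, the P180 protein carrying a biotinylated GFP tag, or of the GFPbio tag alone as the control. The labels name no treatment for either group, and the groups differed in whether P180 was fused to the tag, which both carried. The methods name Wistar rats of the RjHan:WI strain and late embryos as the source of hippocampal cultures, while for the cortical cultures the sources used here do not state the embryo age, the days in culture or how the constructs were delivered. The design names 2 biological replicates, and the table holds a column named as a second replicate of each construct, but these columns match no sample given here and were not analysed. With the 1 library of each group that was used, the P180 library and the GFP library, no difference has a replicate check, no p-value is given, and each comparison is between these libraries and not between the conditions.

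Wnt, BMP and TGF-beta ligands are secreted glycoproteins, whereas Delta-like and Jagged ligands stay anchored in the membrane of the signalling cell. Their receptors span the membrane once, as Notch and the serine/threonine kinase receptors of the TGF-beta family do, or many times, as Frizzled proteins, Ptch1 and Smo do. All of these proteins begin life at the ER, where a signal sequence brings the ribosome to the membrane, while the proteins that relay the signal inside the cell are made on free ribosomes. In the developing cortex these pathways are known for setting progenitor fate and, later, axon growth and synapse formation. The design asks which mRNAs come down with P180, and the comparisons here are of ligands with receptors and of surface proteins with soluble proteins of the same pathways.

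Depth was 6298343 counts (13407 genes detected) for the P180 library and 8428358 (9345 genes) for the GFP library. The P180 gene itself, Rrbp1, had 2541 and 1334 counts in that order, 2.66-fold higher in the first (95% exact counting interval 2.49 to 2.85), and the tag row EGFP_avitag had 63981 and 190058. Counts were divided by size factors of 0.846 and 1.18, and ratios are of these scaled counts, P180 over GFP. Where a pair of raw counts is given for a gene, the P180 library comes first, and the values in brackets after it are the log2 ratio and its 95% interval. A gene was kept if its counts in both libraries summed to at least 10. A gene at 0 on one side was placed at a floor of 3 counts there, so that its fold is a bound against that floor. For such a gene "at least" refers to the floor, and the lower counting limit given beside it is smaller. Intervals cover counting error only, not the spread between replicates, and are too narrow where amplified reads are not independent molecules. Of the 11468 genes kept, 20.4% were at 0 in the GFP library, and every such gene is counted as at least 2-fold higher by construction.

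Of the 82 members, 53 were kept, 25 had no count in either library and 4 had too few. The 53 were more often higher than lower in the P180 library: 30 were at least 2-fold higher, 10 at least 2-fold lower and 13 within 2-fold. In percent these were 56.6% higher and 18.9% lower, beside 40.6% and 19.9% of all genes kept. Their median log2 ratio was 1.23, against 0.45 over all genes. The 30 higher members split evenly, with 15 at 0 in the GFP library and 15 counted in both libraries. Of the latter, Lrp5, Lrp10, Tgfb2 and Wnt7a lay within 2-fold when mitochondrially encoded genes and the tag row were left out of the library totals used for scaling, which lowered every log2 ratio alike.

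The excess over the background lay among members with more counts. With a count required in both libraries, 15 of 36 members were higher (41.7%) and 8 lower (22.2%), beside 25.6% and 24.0% of the 9005 genes that met the same terms. With a mean of 100 or more scaled counts as well, 9 of 22 were higher (40.9%) and 3 lower (13.6%), beside 21.5% and 22.9%. Of the 29 members with at least 50 counts in the GFP library, 8 were higher and 8 lower (27.6% each), beside 16.6% and 27.8% of all genes. Among members with a mean scaled count under 100, 20 of 30 were higher (66.7%), beside 65.5% of all genes in that range, and 7 lower (23.3%), beside 16.1%. Together the 82 genes made up 0.262% of all P180 library counts (95% exact binomial interval 0.258 to 0.266) and 0.229% of those of the GFP library (0.226 to 0.233).

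**Figure D1:**
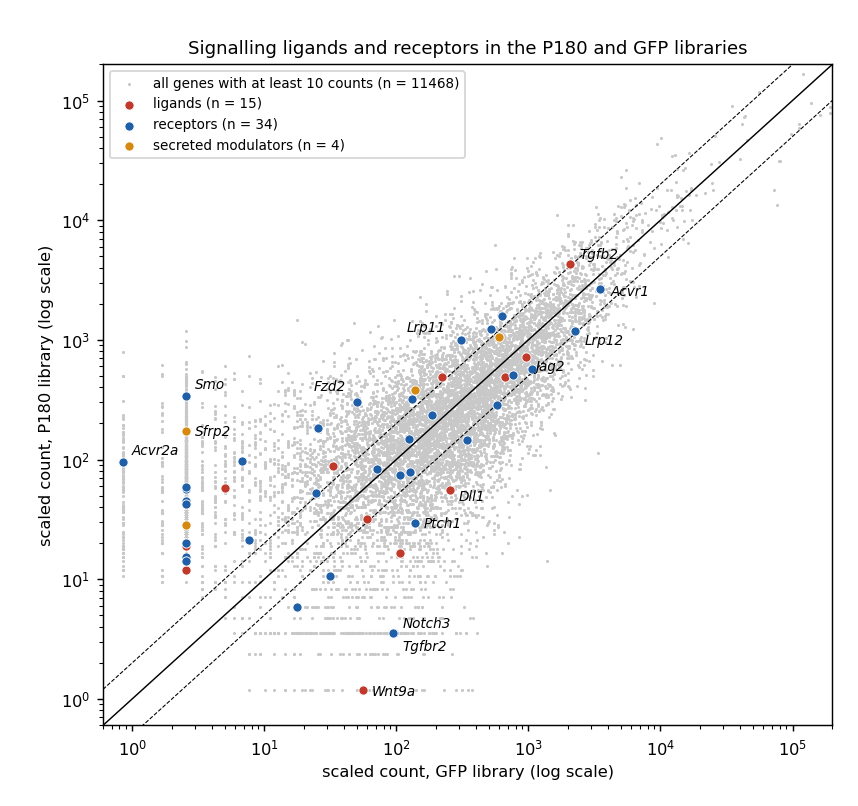
Scaled counts of each gene in the GFP library (horizontal, log scale) and the P180 library (vertical, log scale). Grey points are the 11468 genes kept, coloured points are the 15 ligands, 34 receptors and 4 secreted modulators kept, the solid line marks equal levels and the dashed lines a 2-fold difference. Genes at 0 in a library are drawn at the floor of 3 counts, which forms the column of points that holds Smo and Sfrp2.

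Wnt ligands are lipid-modified proteins that bind Frizzled. Of the 19 Wnt genes, 7 were kept. Among these, 4 were higher (40.6% of all genes kept), 1 lower (19.9%) and 2 within 2-fold. Wnt7a, known for promoting synapse formation, had 417 counts (P180) and 260 (GFP), a log2 ratio of 1.16 (0.94 to 1.39). Its close relative Wnt7b, known for promoting dendrite growth, stood the other way at 413 and 790 counts (-0.45, -0.63 to -0.28). Wnt4 had 75 and 39 counts (1.43, 0.85 to 2.02). Wnt5a, a ligand of the non-canonical branch that repels axons, had 27 and 71 counts (-0.91, -1.61 to -0.25). Wnt2 (10 counts) and Wnt3 (16 counts) had none in the GFP library and were at least 4.66-fold and 7.45-fold higher against the floor, with lower counting limits of 3.13 and 5.39. Wnt9a was the 1 Wnt gene at least 2-fold lower, with 1 count (P180) against 66 (GFP) (-5.56, -10.89 to -3.03). The Wnt genes thus lay on both sides of equality. The other 12, namely Wnt1, Wnt2b, Wnt3a, Wnt5b, Wnt6, Wnt8a, Wnt8b, Wnt9b, Wnt10a, Wnt10b, Wnt11 and Wnt16, had no count in either library. A count of 0 allows a level of up to 0.476 CPM (counts scaled to a fixed library total) in the P180 library and 0.356 in the other.

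Tgfb2, a ligand of the TGF-beta type II receptor, had 3635 and 2437 counts, a log2 ratio of 1.06 (0.98 to 1.13). It held 67.6% of all ligand counts on the P180 side and 46.6% on the GFP side, so the ligand sum largely follows this gene. Its value sat at the 2-fold line and was under it when libraries were scaled by total counts. Tgfb3 had 17 counts against none (at least 7.92-fold higher, lower limit 5.76) and Tgfb1 had none in either library. The BMP ligands that were counted went opposite ways: Bmp2 had 36 counts against none (at least 16.8-fold higher, lower limit 12.9) and Bmp7 had 14 against 127 (log2 ratio -2.70, -3.61 to -1.90). Both are known as inducers of cell fate in the embryonic nervous system. Bmp3, Bmp4, Bmp5, Bmp6, Bmp10 and Bmp15 had no count.

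The membrane-anchored Notch ligands were also mixed, with 2 of 4 higher and 1 lower, beside 40.6% and 19.9% of all genes kept. Dll1, the Delta-like ligand of newborn neurons and their precursors, had 47 counts (P180) against 299 (GFP) (log2 ratio -2.19, -2.66 to -1.74). Dll3, a divergent family member that does not activate Notch in neighbouring cells, had 49 and 6 (3.51, 2.29 to 5.03). Jag2 had 611 and 1139 counts (-0.42, -0.56 to -0.27). Jag1 had 12 against none, at least 5.59-fold higher with a lower limit of 3.88, and Dll4 had no count. Dll1 overlaps another annotated gene, Fam120b, with which reads could be shared.

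Of the 5 secreted modulators, 3 were higher, 1 was within 2-fold and 1 had no count, beside 40.6% higher of all genes kept. Of the 2 counted in both libraries 1 was higher, beside 25.6% of all genes so counted. Sfrp proteins carry a Frizzled-like domain and hold Wnt ligands away from their receptors. Sfrp2 had 147 counts (P180) against none (GFP), at least 68.5-fold higher (lower limit 55.0), and Sfrp4 had 24 against none (at least 11.2-fold, lower limit 8.41), though its span overlaps Nme8. Sfrp1, with 896 and 707 counts, stayed within 2-fold (log2 ratio 0.82, 0.68 to 0.97), and Sfrp5 had no count. Bmp1, a metalloprotease that matures procollagens and cleaves the BMP antagonist chordin, had 322 and 165 counts (1.45, 1.17 to 1.73).

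Frizzled proteins are the multi-pass receptors of Wnt ligands. Among the 7 kept, 5 were higher (40.6% of all genes kept), 1 lower (19.9%) and 1 within 2-fold. Fzd5 and Fzd10 count as higher through a 0 in the GFP library. Fzd2 had 258 counts (P180) and 60 (GFP), a log2 ratio of 2.59 (2.18 to 3.02). Fzd8 had 156 and 30 (2.86, 2.29 to 3.48). Fzd3, known for its need in the growth of forebrain axon tracts in mice, had 82 and 8 (3.84, 2.79 to 5.10). These 3 receptors had counts in both libraries and intervals that lay wholly above a 2-fold difference. Fzd5 (17 counts) and Fzd10 (13 counts) had none in the GFP library and were at least 7.92-fold and 6.05-fold higher, with lower limits of 5.76 and 4.26. Fzd9 had 66 and 150 counts (-0.70, -1.14 to -0.28). Fzd7 was lower, at 9 and 37 counts (-1.56, -2.79 to -0.48), though its interval reached well inside 2-fold. Fzd4 had 4 counts against 0, too few to be kept, and Fzd1 and Fzd6 had none.

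The single-pass partners of Frizzled had few counts. Lrp5, with 44 and 29, had a log2 ratio of 1.08 (0.38 to 1.81), and Lrp6, with 5 and 21, one of -1.59 (-3.35 to -0.14). Both are co-receptors that Wnt ligands bring together with Frizzled. Ror2, a receptor tyrosine kinase for Wnt5a, had 18 and 9 counts (1.48, 0.25 to 2.82). Ror1 had 7 against 0 and was not kept. The intervals of Lrp5, Lrp6 and Ror2 all crossed the 2-fold line.

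**Figure D2:**
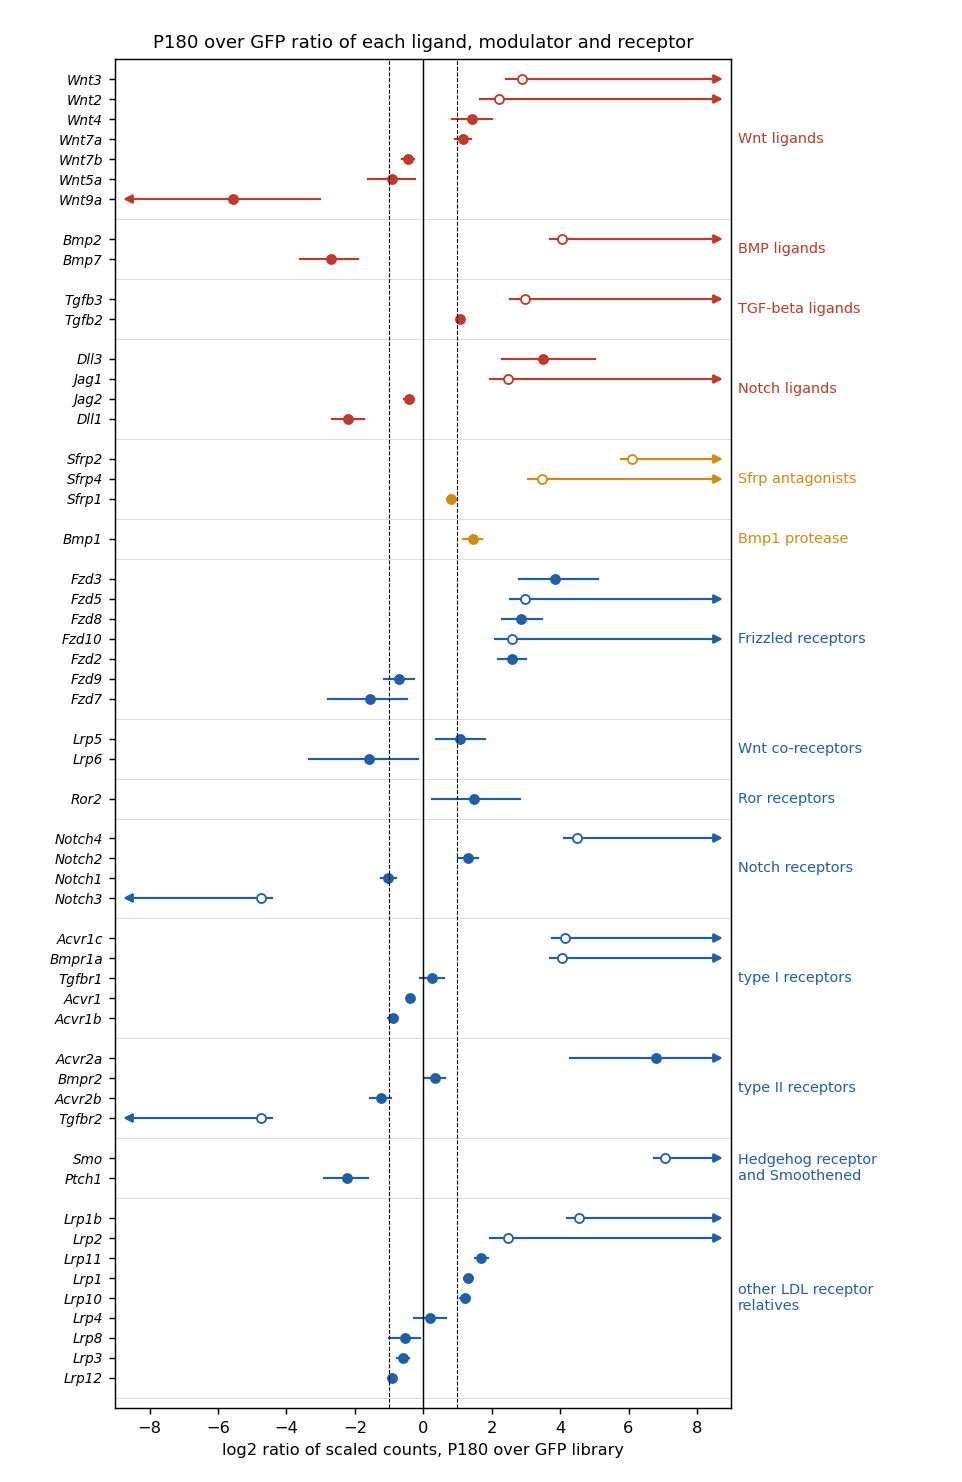
The log2 ratio of scaled counts, P180 over GFP library, of the 53 members kept, by family. Points are ratios, bars are 95% exact counting intervals of 1 library against 1 library, open points are genes at 0 in a library and drawn at the floor of 3 counts, arrows mark intervals that run beyond the axis, and dashed lines mark 2-fold. Most families hold members on both sides of 0, such as Notch2 at 1.31 and Notch1 at -1.02.

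Notch receptors, which are cut on ligand binding to release a transcriptional co-activator, were evenly divided. Notch1 had 241 counts (P180) and 682 (GFP), a log2 ratio of -1.02 (-1.24 to -0.80). Notch2 had 273 and 154 (1.31, 1.02 to 1.60). Notch3 had no count against 113, at least 27.0-fold lower against the floor (lower limit 21.6), and Notch4 had 48 against none, at least 22.4-fold higher (lower limit 17.5). Notch3 and Notch4 are best known from blood vessels, in mural and endothelial cells. The pathway as a whole, ligands included, had 4 of 8 members higher and 3 lower, beside 40.6% and 19.9% of all genes kept.

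Receptors of the TGF-beta family are kinases that work in pairs, a type II receptor activating a type I receptor. Of 5 type I receptors kept, 2 were higher and none lower, beside 40.6% and 19.9% of all genes kept. The 2 higher were at 0 in the GFP library, and none counted in both libraries was higher. Acvr1, a BMP type I receptor, had 2243 and 4114 counts (log2 ratio -0.39, -0.47 to -0.32), and Acvr1b, the main activin type I receptor, 487 and 1255 (-0.88, -1.04 to -0.73). Both stood below equality by more than counting error but by less than 2-fold. With mitochondrially encoded genes and the tag row left out of the scaling totals, Acvr1b was at -1.12, past 2-fold. Tgfbr1 had 126 and 147 counts (0.26, -0.09 to 0.61), so its direction is not settled by counting. Acvr1c (38 counts) and Bmpr1a (36 counts) had none in the GFP library and were at least 17.7-fold and 16.8-fold higher, with lower limits of 13.7 and 12.9. Bmpr1b had 1 count against 0, and Acvrl1 had none.

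Type II receptors had 1 of 4 higher and 2 lower, beside 40.6% and 19.9% of all genes kept. Acvr2a had 80 counts (P180) and 1 (GFP), a log2 ratio of 6.80 (4.29 to 12.13), whereas Acvr2b, which also binds activins, had 123 and 408 (-1.25, -1.55 to -0.95). Acvr2a overlaps Orc4 in the annotation, so shared reads are possible there. Tgfbr2, the receptor that Tgfb2 and Tgfb3 signal through, had no count in the P180 library against 112, at least 26.7-fold lower (lower limit 21.4). Bmpr2 had 199 and 219 counts (0.34, 0.06 to 0.63). Tgfbr3, the co-receptor betaglycan, was not counted in either library.

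The Hedgehog proteins went opposite ways. Smo, the multi-pass protein that passes the signal on, had 287 counts (P180) against none (GFP), at least 134-fold higher with a lower limit of 108. Ptch1, the receptor that holds Smo inactive, had 25 and 163 counts, a log2 ratio of -2.22 (-2.89 to -1.61). Smo was the only member with a mean scaled count above 100 that had no count in the GFP library.

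Many LDL receptor relatives are endocytic receptors. All 9 were kept, with 5 higher and none lower, beside 40.6% and 19.9% of all genes kept. Of the 7 counted in both libraries 3 were higher, beside 25.6% of all genes so counted. Lrp1, which takes up ApoE-bearing lipoproteins, had 1328 and 746 counts (log2 ratio 1.31, 1.18 to 1.45). Lrp10 had 1034 and 616 (1.23, 1.08 to 1.38) and Lrp11 had 849 and 365 (1.70, 1.52 to 1.88). The intervals of these 3 lay wholly above a 2-fold difference under the main scaling. With mitochondrially encoded genes and the tag row left out of the scaling totals, Lrp1 was at 1.08 and Lrp10 at 0.99. Lrp1b (50 counts) and Lrp2, the receptor megalin (12 counts), had none in the GFP library and were at least 23.3-fold and 5.59-fold higher, with lower limits of 18.2 and 3.88. Lrp12 stood at the other end, with 1012 and 2680 counts (-0.92, -1.03 to -0.82). Under that other scaling it was at -1.16, past 2-fold on the lower side. Lrp3 had 430 and 901 (-0.58, -0.75 to -0.42) and overlaps Slc7a10 in the annotation. Lrp8, a reelin receptor that guides cortical layering, had 63 and 127 (-0.53, -0.99 to -0.08), and Lrp4, the agrin receptor of the neuromuscular junction, had 70 and 85 (0.20, -0.28 to 0.68).

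Shares of higher genes lay close together for ligands and receptors. Of 15 ligands, 9 were higher and 3 lower, and of 34 receptors, 18 were higher and 7 lower, 60.0% and 52.9% higher respectively. Of all genes kept, 40.6% were higher and 19.9% lower. The median log2 ratio was 1.16 for ligands and 1.14 for receptors (1.16 with genes at 0 at their bound). With counts required in both libraries, 4 of 10 ligands and 10 of 24 receptors were higher, beside 25.6% of all genes. The medians of ligands and receptors were then -0.43 and 0.23. The ligand median thus turned negative once Bmp2, Tgfb3, Jag1, Wnt2 and Wnt3, all at 0 in the GFP library, were left out. Receptors were more often measured at all: 34 of 42 were kept against 15 of 35 ligands, beside 11468 of all 25628 genes. Genes with counts in the P180 library alone are among those kept.

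By the way the protein sits in the membrane, multi-pass receptors had a median log2 ratio of 2.81 (2.60 at the bound), with 6 of 9 higher and 2 lower, but Fzd5, Fzd10 and Smo were kept through the P180 library alone. The 6 counted in both libraries had 3 higher and 2 lower, with a median of 0.93. Single-pass receptors had a median of 0.34, with 12 of 25 higher and 5 lower, and the 18 counted in both had 7 higher and 3 lower, with a median of 0.23. Over all genes, 40.6% of those kept and 25.6% of those counted in both libraries were higher. The shares of summed counts that follow are again of totals that include mitochondrially encoded genes and the tag row. In summed counts, the multi-pass receptors took 0.0146% of the P180 library (95% exact binomial interval 0.0136 to 0.0155) and 0.00532% of the GFP library (0.00483 to 0.00583). Single-pass receptors took 0.140% (0.137 to 0.143) and 0.152% (0.149 to 0.154). Secreted ligands took 0.0740% (0.0719 to 0.0762) and 0.0450% (0.0435 to 0.0464), and the membrane ligands 0.0114% (0.0106 to 0.0123) and 0.0171% (0.0163 to 0.0180). Secreted ligands had a median of 1.16 over 11 genes, and the membrane ligands 1.43 over 4 genes (1.03 at the bound). With counts in both libraries these medians were -0.45 over 7 genes and -0.42 over 3. The sets are small and each holds members on both sides of equality.

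**Figure D3:**
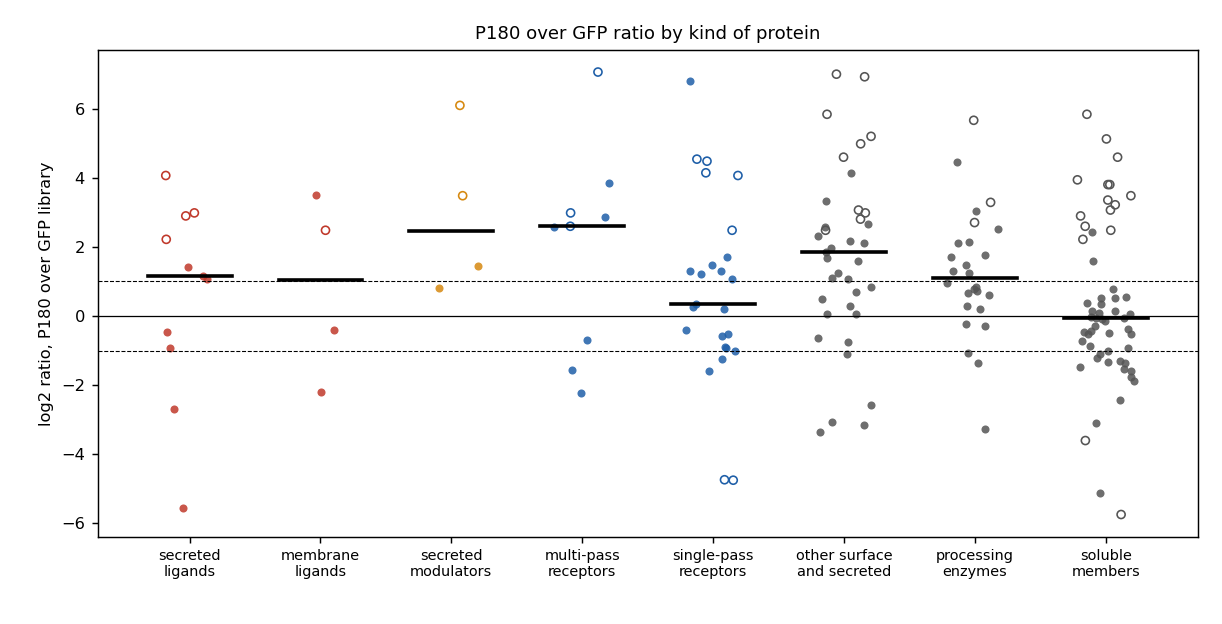
The log2 ratio, P180 over GFP library, of each gene kept, by kind of protein, with members in colour and the other pathway lists in grey. Open points are genes at 0 in a library, at the floor of 3 counts, the bars are medians of the points drawn, and the dashed lines mark 2-fold. Open points on the upper side passed the filter through the P180 library alone and raise the medians, which for genes with counts in both libraries were 0.93 for multi-pass receptors and -0.44 for soluble members.

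Within families, the ratios of the members paired here differed by more than counting error, and such differences do not depend on how the libraries are scaled. The log2 ratio of Wnt7a exceeded that of Wnt7b by 1.62 (exact conditional 95% interval 1.33 to 1.91). Notch2 exceeded Notch1 by 2.33 (1.96 to 2.69), and Dll3 exceeded Dll1 by 5.70 (4.35 to 7.27). Each pair is drawn from 1 gene family. Among LDL receptor relatives, Lrp11 exceeded Lrp12 by 2.62 (2.41 to 2.83), and among Frizzled genes Fzd2 exceeded Fzd7 by 4.14 (2.96 to 5.44). Acvr2a exceeded Acvr2b by 8.05 (5.49 to 13.38), an estimate that rests on 1 count. In all, 18 pairs were compared, all of them chosen after their values were seen, so their intervals describe these genes and give no rate of such differences.

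Soluble proteins of the same pathways were seldom higher when counted in both libraries. This list of 68 genes holds Dishevelled, Axin, Apc, beta-catenin, Smad and Gli proteins, Notch transcription partners and the like. Like the members, it was chosen with earlier results of these data known. Of 57 kept, 16 were higher (28.1%) and 16 lower (28.1%), with a median log2 ratio of -0.05, beside 40.6% and 19.9% of all genes. Of the 16 higher, 14 were at 0 in the GFP library, including Sufu, an inhibitor of Gli proteins (123 counts), the ubiquitin ligase Itch (75 counts) and Hes1, a Notch target (52 counts). With counts in both libraries, 2 of 41 were higher (4.88%) and 14 lower (34.1%), against 15 and 8 of 36 surface and secreted members and against 25.6% and 24.0% of all genes. The scaffolds Apc2 (9444 and 12644 counts, log2 ratio 0.06, 0.02 to 0.10) and Apc (1495 and 4229, -1.02, -1.10 to -0.93) and the formin Daam1 (1910 and 2941, -0.14, -0.22 to -0.06) were the soluble members with the highest mean. The lowest ratios belonged to Tcf7, a Wnt transcription factor (0 against 225 counts), Kif7, a Hedgehog regulator (17 and 834 counts, -5.13, -5.92 to -4.45) and Nkd1 (0 against 51).

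Enzymes, escorts and release proteins listed for these ligands and receptors, with a sterol synthesis enzyme among them, stood with the surface members. Of 26 kept, 13 were higher and 3 lower (11.5%), with a median of 1.10, beside 40.6% and 19.9% of all genes. With counts in both libraries, 10 of 23 were higher (43.5%), beside 25.6% of all genes. Wls, which carries Wnt ligands to the surface, had 109 counts against none (at least 50.8-fold higher, lower limit 40.6), Mfng, which adds sugars to Notch, had 21 against none (at least 9.78-fold higher, lower limit 7.27), and Furin, the protease that cuts Notch and TGF-beta precursors, had 457 and 29 (log2 ratio 4.46, 3.92 to 5.06). Dhcr7, an enzyme of sterol synthesis, had 9551 and 3960 (1.75, 1.70 to 1.81), Lrpap1, the chaperone of LDL receptor relatives, 1662 and 1363 (0.77, 0.66 to 0.87), and Disp2 1994 and 1570 (0.83, 0.73 to 0.92). Disp1, which releases Hedgehog ligands, was lowest at 45 and 609 counts (-3.28, -3.75 to -2.84), followed by the glycosyltransferases Eogt (141 and 509, -1.37, -1.65 to -1.10) and Poglut1 (101 and 295, -1.06, -1.40 to -0.73).

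Other surface and secreted proteins of these pathways, outside the naming rule, formed the last list of 68 genes. Of 37 kept, 24 were higher (64.9%) and 5 lower (13.5%), with a median of 1.84, beside 40.6% and 19.9% of all genes. With counts in both libraries 14 of 27 were higher (51.9%), beside 25.6% of all genes. Ltbp4, a matrix protein that holds latent TGF-beta (275 counts), Ptk7, a Wnt co-receptor (261 counts), and Grem1, a BMP antagonist (123 counts), had none in the GFP library. Scube1 had 2287 and 1972 counts (log2 ratio 0.70, 0.61 to 0.78) and Gdf1, a ligand of the TGF-beta family, 1846 and 849 (1.60, 1.48 to 1.72). Dner, a neuronal transmembrane Notch ligand, had 7476 and 4431 counts (1.24, 1.18 to 1.29). Mstn, or myostatin (12 and 171 counts), Rspo3, a Wnt enhancer (33 and 414), and Rgmb, a BMP co-receptor (18 and 211), had the lowest log2 ratios, at -3.35, -3.17 and -3.07.

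**Figure D4:**
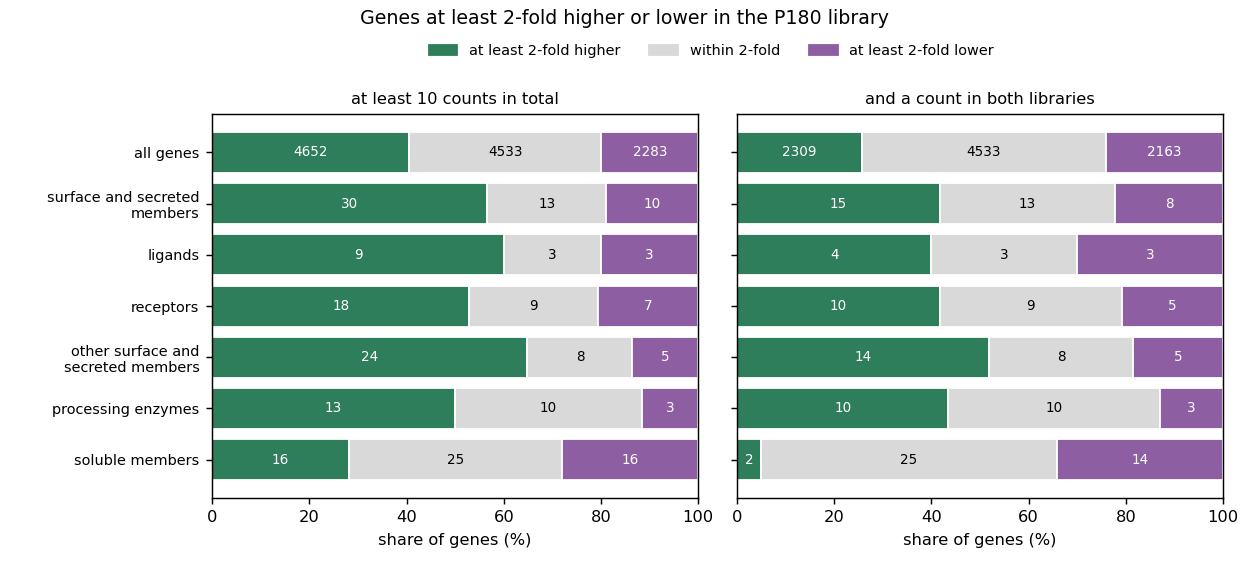
Shares of genes (%) at least 2-fold higher, within 2-fold or at least 2-fold lower in the P180 library, for all genes, the members and the other lists of the same pathways, with the number of genes in each bar. The left panel takes genes with at least 10 counts in total and the right panel those that also have a count in both libraries, where 2 of 41 soluble members but 15 of 36 surface and secreted members were at least 2-fold higher.

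Several members are also known from glia and dividing progenitors, and markers of those cells differed between the libraries. Of all genes kept, 40.6% were higher and 19.9% lower. Among those with a mean scaled count under 100, 65.5% were higher and 46.8% were at 0 in the GFP library. Sums in CPM are of library totals that include mitochondrially encoded genes and the tag row. Of 10 astrocyte markers kept, 8 passed 2-fold on the higher side and none on the lower, and the summed list stood at 4679 CPM against 1263. Slc1a3 alone gave 66.3% and 56.0% of these sums, Aldh1l1 and Slc1a2 were at 0 in the GFP library, and Gjb6 was at 0 in both. Of 8 markers of dividing cells 7 were higher, and Aurkb, Ccnb1, Cdk1, Cenpf and Mki67 were at 0 in the GFP library. The sums were 199.7 against 88.2 CPM. Of 6 radial glia and progenitor markers kept 3 were higher, among them Sox2 (865 and 108 counts), and 1 was lower, with sums of 1612 and 937 CPM and Eomes at 0 in both. Oligodendrocyte lineage markers had 4 of 7 higher and 1 lower, with sums of 619 and 295 CPM and Mog at 0 in both. Every marker of microglia, and of endothelial and mural cells, was at 0 in the GFP library, and the P180 library held 86 counts of each list, with Itgam, P2ry12, Tyrobp, Cdh5, Flt1, Kdr and Tek at 0 in both. Fibroblast and meningeal markers had 1 of 3 higher and 1 lower, with Col3a1 at 0 against 483 counts. Neuronal markers, all 10 of which were present in both libraries, had sums of 5304 and 5504 CPM, with 1 higher and 1 lower. The part of these markers in the ratios of the members was not tested. In pull-down libraries without an input library, more cells of a type, more RNA per cell and more capture with P180 cannot be told apart.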

How the data were processed

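RNA bound to P180-GFPbio or GFPbio in rat primary cortical neurons was sequenced from adapted CEL-Seq2 libraries, which read the 3′ ends of mRNAs. According to the study's methods, read 2 was aligned to mRatBN7 and counted with STARSolo 2.7.10a after demultiplexing with je-suite-2.0, and multi-mapping reads were not counted. The authors deposited raw counts per gene. The sources used here do not give the annotation release, the use of strand or whether reads were collapsed by molecular identifier, and uncollapsed copies would make counting intervals too narrow. The table holds 2 further columns, named as a second replicate of each construct, that match no sample given here, and they were not used. The 92 ERCC rows (2 counts in all in the P180 library and 9 in the other) were left out.

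Median-of-ratios size factors were computed over the 11468 genes with at least 10 counts in total. The authors' own test, DESeq2, needs replicates and was not run. Ratio intervals are Clopper-Pearson intervals on the P180 share of each gene's counts, medians use log2 of scaled counts plus 1, and calls use a 2-fold threshold. Any of the 82 members may be named, though 1 is not reported here. Of each other pathway list, the 3 genes with the highest mean scaled count, the 3 highest and the 3 lowest ratios are named, and any marker. Members and lists were chosen with earlier results of these data known. Overlapping genes were looked up in the RefSeq GRCr8 table, which matched 53 of 53 members kept, 18 of which overlap another gene. Among these, Acvr1, Bmpr2, Fzd5 and Lrp11 overlap protein-coding genes known only by a locus number. Protein sequences were not used here, so the planned printing of N-terminal residues was not done. Python 3.11.15, numpy 2.4.6, pandas 2.3.3, scipy 1.17.1, R 4.3.3 and edgeR 4.0.16 (TMM factors) were used, and the steps were tested on simulated data. Alternatives were other scalings, filters and floors, thinning of the GFP library to the P180 total, and narrower sets of receptors and ligands.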

Additional observations from a re-analysis of the deposited data

How the results depend on the processing

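Counts of higher and lower members stayed within 1.5 times their value under TMM scaling, total-count scaling, thinning of the GFP library, no filter, and a floor of 1 count. Stricter filters changed most. With at least 50 counts over both libraries, 17 of 38 members, 11 of 25 receptors, 4 of 10 ligands and 5 of 45 soluble members were at least 2-fold higher, the receptor median was 0.26 and the ligand median turned to -0.43. With counts in both libraries these were 15 of 36, 10 of 24, 4 of 10 and 2 of 41, with medians of 0.23 and -0.43. Over all genes, 2784 and 2309 were higher under these filters, against 4652. The second filter leaves out genes at 0 by construction, and the first those with few counts. Leaving the mitochondrially encoded genes and EGFP_avitag out of the totals used for scaling shifted every log2 ratio by -0.24 and gave medians of 0.91 for receptors and 0.92 for ligands. It took Lrp5, Lrp10, Tgfb2 and Wnt7a back within 2-fold and put Acvr1b, Lrp12 and Wnt5a past it on the lower side, so that 26 members were higher and 13 lower, and 7 ligands higher and 4 lower in place of 9 and 3. Adding 5 scaled counts in place of 1 gave a receptor median of 1.00. No member at least 2-fold higher or lower changed direction under any scaling, the thinning or the other floor. No paired analysis was possible because 1 library of each group was used. Zeros and low counts limit the folds: 15 of the 30 higher members were at 0 in the GFP library, and 13 had under 50 counts in total. The GFP library was the deeper one, yet 2343 of the genes kept were at 0 in it, against 120 in the P180 library. Thinning it to the P180 total changed no call among the 53 members.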
